A study of Arabidopsis thaliana with 8 samples.

Results

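The 6 genes described here are AT5G48570 (ROF2), AT2G29500, AT1G54050, AT2G20560, Hop3 (AT4G12400) and AT5G51440, a set of Arabidopsis thaliana genes for heat-shock proteins and their partners. Each was read by 1 probe set, a group of short oligonucleotides on an Affymetrix ATH1 array. They were picked by probe set identifier out of 22746 probe sets that are not array controls. The choice was made with their differences between treatments on these arrays already known, so those differences are given as a description, with no test. All 8 arrays came from shoots of ga1-3 seedlings, a mutant of the strain Ler that lacks gibberellin, aged 8 days and grown at 22 °C on medium with 2% sucrose. The 4 control arrays came from seedlings misted with water, and the other 4 from seedlings misted with 2 µM GA4, a bioactive gibberellin. Shoots were cut 1 h later in both groups. The question of the study was which genes respond early to gibberellin. Neither an unsprayed nor a wild-type sample was analysed here, so every array shares the ga1-3 mutation, the spray and the cutting.

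Heat-shock proteins are molecular chaperones that keep other proteins folded, and in plants their genes are switched on by heat-shock transcription factors within minutes of warming. Small heat-shock proteins hold unfolding proteins in a soluble state. The HSP70 chaperones, brought to their clients by J-domain proteins, refold them, and Hop proteins pass clients from HSP70 to HSP90. The ga1-3 mutation disables GA1, the enzyme of the first committed step of gibberellin synthesis, and no probe set named here reads GA1, so the genotype was not checked on the arrays.

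All 6 genes passed the filter on low values, which kept the 13648 probe sets with the highest mean signal (at least 110 units). No single array fell below that level for any of the 6, the lowest value being 149 units, and the lowest mean in water was 7.44 on the log2 scale. Signals are MAS5 intensities on a linear scale. In whole shoots, fewer cells of a type and less RNA per cell cannot be told apart. Rubisco activase (RCA), the 1 of 12 shoot markers with a named probe set, read 16465 to 30509 units, while the root markers EXPA7 and EXPA18, 2 of 8, read 52.1 to 126 and 11.8 to 127 units.

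Replicates 1 and 2 stood apart from replicates 3 and 4 in both treatments. Correlations of log2 signals were 0.923 to 0.955 within the first set, 0.976 to 0.984 within the second and 0.866 to 0.926 between them. For actin, the ratio of 3′ over 5′ probe signals, which grows as RNA degrades, was 5.07 and 2.72 on water replicates 1 and 2 and 6.81 and 4.48 on the matching GA4 arrays, against at most 1.76 on the arrays of replicates 3 and 4. With the matching probe sets GAPDH gave at most 1.34 on any array and ubiquitin 1.30 to 2.80, the highest on GA4 replicate 1. On GA4 replicates 1 and 2 the spiked hybridisation controls read 2.94 and 1.71 times their mean in water, and elsewhere 0.944 to 1.06 times. Their part in the results below was not tested. Values are therefore given for each array and for each set.

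In water against GA4, the 6 genes were on average higher after GA4, by 0.39 to 0.93 log2 units, with a median of 0.53 against 0.01 over all tested probe sets. The difference was mostly on replicates 3 and 4, where 6 of 6 genes were higher in GA4 on both numbers (28.3% of all tested probe sets were). On replicates 1 and 2, 2 of 6 were higher on both (31.7% of all tested). The median over the 6 genes was 0.20 on replicates 1 and 2 and 0.87 on replicates 3 and 4, against 0.01 and 0.01 over all tested. Since the choice of genes used this contrast, nothing is read from these shares.

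AT5G48570 encodes ROF2, a heat-inducible peptidyl-prolyl isomerase of the FKBP family that works with HSP90. Its signal in water was 503, 351, 303 and 472 units on replicates 1 to 4. In GA4 it was 823, 544, 846 and 875 units. All 4 GA4 arrays lay above all 4 water arrays, which was so for this gene alone among the 6 (1 of 6, and 0.894% of all tested probe sets with GA4 above water). The mean was 8.64 ± 0.35 log2 units in water and 9.57 ± 0.32 in GA4 (SD, n = 4). By replicate number, GA4 minus water was 0.71, 0.63, 1.48 and 0.89 log2 units, a mean of 0.93 ± 0.38 (SD, n = 4) or 1.90-fold. The size was 0.67 on replicates 1 and 2 and 1.19 on replicates 3 and 4, so this gene was higher after GA4 in both sets.

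Hop3 bridges HSP70 and HSP90, and its gene is strongly induced by heat in Arabidopsis. Its signal was 211, 158, 152 and 180 units in water and 248, 150, 306 and 299 units in GA4. The groups overlapped, with GA4 replicate 2 below every water array. GA4 minus water was 0.23, −0.08, 1.01 and 0.73 log2 units on replicates 1 to 4, a mean of 0.47 ± 0.49 (SD, n = 4). Replicates 1 and 2 gave a mean of 0.08, and replicates 3 and 4 gave 0.87, or 1.83-fold. Its relatives Hop1 and Hop2, which were not among the 6, were at 0.01 (SE 0.19) and 0.03 (SE 0.19) in the unpaired fit.

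**Figure D1:**
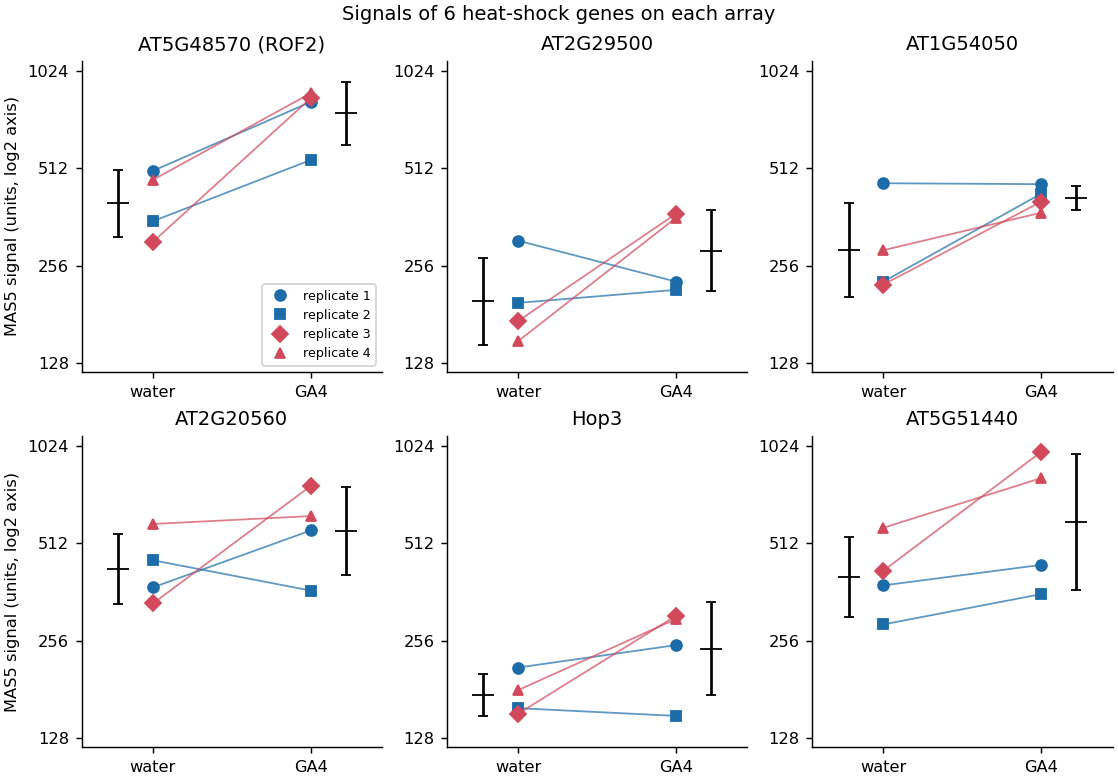
MAS5 signal of each of the 6 genes on the 8 arrays (vertical log2 axis in signal units), with water left and GA4 right. Lines join arrays of the same replicate number, blue for replicates 1 and 2 and red for replicates 3 and 4, and black bars give the mean ± SD of log2 signals. Red lines go up in every panel, blue lines do so in some, and GA4 lies above water without overlap for AT5G48570 only.

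Among the small heat-shock proteins, AT5G51440 belongs to the mitochondrial type. Its signal was 380, 287, 422 and 573 units in water and 440, 357, 985 and 816 units in GA4. It was higher on the GA4 array of all 4 numbers, yet the groups overlapped, because water replicate 4 read higher than GA4 replicates 1 and 2. GA4 minus water was 0.21, 0.31, 1.22 and 0.51 log2 units, a mean of 0.56 ± 0.46 (SD, n = 4) or 1.48-fold. This gene had the widest range of the 6, with a 3.43-fold step from its lowest array (water replicate 2) to its highest (GA4 replicate 3).

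AT2G29500 is a class I small heat-shock protein of the cytosol. Its signal was 306, 196, 173 and 149 units in water and 228, 215, 371 and 360 units in GA4. On replicate 1 the water array was the higher one, and the GA4 arrays of replicates 3 and 4 lay above every water array. On replicates 1, 2 and 4 GA4 minus water was −0.42, 0.13 and 1.27 log2 units, and on replicate 3 GA4 was 2.15-fold higher, for a mean of 0.52 ± 0.80 (SD, n = 4). The means of the sets had opposite signs, with −0.14 on replicates 1 and 2 and 1.19 on replicates 3 and 4. Class I small heat-shock proteins have closely similar coding sequences, and how far this probe set binds its relatives was not tested.

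AT1G54050 is a class III small heat-shock protein. It read 460, 228, 224 and 286 units in water and 457, 428, 404 and 373 units in GA4. The water array of replicate 1 was the highest of all 8, and the other 3 water arrays lay below every GA4 array. GA4 minus water was −0.01, 0.91, 0.85 and 0.39 log2 units, a mean of 0.53 ± 0.43 (SD, n = 4). This was the gene with the smallest gap between the sets, with means of 0.45 for replicates 1 and 2 and 0.62 for replicates 3 and 4. Its GA4 arrays were also the closest together, with an SD of 0.12 log2 units against 0.48 in water.

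AT2G20560 encodes a J-domain protein, a partner that hands clients to HSP70. Its signal was 374, 454, 334 and 588 units in water and 562, 366, 772 and 622 units in GA4. Replicate 2 was lower in GA4, and replicate 4 was nearly level, with 588 units in water and 622 units in GA4. GA4 minus water was 0.59, −0.31, 1.21 and 0.08 log2 units, a mean of 0.39 ± 0.66 (SD, n = 4). It had the smallest mean of the 6 genes. The mean was 0.14 on replicates 1 and 2 and 0.65 on replicates 3 and 4, although replicate 1 lay above replicate 4.

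The differences by replicate number are a description, since the 6 genes vary together and were chosen with these differences known. The 4 differences below 0 all came from replicates 1 and 2 and belonged to AT2G29500, AT1G54050, AT2G20560 and Hop3. A positive difference in all 4 numbers was seen in 2 of 6 genes, AT5G48570 and AT5G51440 (9.64% of all tested). By number, the median over the 6 genes was 0.22, 0.22, 1.16 and 0.62 log2 units. Replicate 3 gave the largest difference for 4 genes, AT5G48570, AT2G20560, Hop3 and AT5G51440. On that number the water array was the lowest of all 8 for AT5G48570, AT1G54050 and AT2G20560, and the GA4 array the highest of all 8 for AT2G29500, AT2G20560, Hop3 and AT5G51440.

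**Figure D2:**
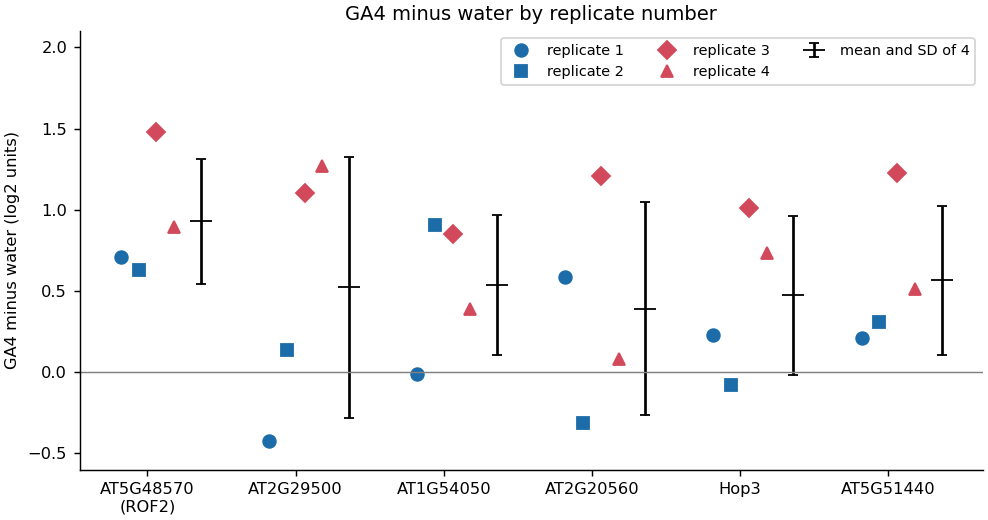
GA4 minus water (vertical axis, log2 units) for each of the 6 genes by replicate number, blue for replicates 1 and 2 and red for replicates 3 and 4, with the mean ± SD of the 4 in black. All 12 red points lie above 0, and 4 of the 12 blue points lie below it.

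The levels of the 6 genes differed between the sets in both treatments. In water, replicates 3 and 4 minus replicates 1 and 2 was −0.61 log2 units for AT2G29500, −0.36 for AT1G54050 and −0.15 for AT5G48570. It was −0.14 for Hop3, 0.10 for AT2G20560 and 0.57 for AT5G51440. In GA4 it was 0.36 for AT5G48570, 0.61 for AT2G20560, 0.65 for Hop3 and 0.72 for AT2G29500. For AT5G51440 it was 1.18 and for AT1G54050 −0.19. The sets also differed over all tested probe sets, and how far that makes these values was not tested. The GA4 effect on replicates 3 and 4 minus that on replicates 1 and 2 was above 0 for 6 of 6 genes, against 50.3% of all tested probe sets. The size of that gap was 1.33 for AT2G29500, 0.79 for Hop3, 0.61 for AT5G51440, 0.52 for AT5G48570, 0.51 for AT2G20560 and 0.17 for AT1G54050. It is given with no test, since it is made of the differences that were known when the genes were chosen.

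Because the arrays fall into these sets, co-variation was taken after each gene was centred within replicates 1 and 2 and within replicates 3 and 4. The 15 pairs of the 6 genes then had Pearson correlations of 0.46 to 0.96 over the 8 arrays, with a median of 0.80. These points share the treatment and the replicate numbers, and the genes were chosen for their treatment difference, so the values are a description. The closest pair was AT5G48570 and AT5G51440 at 0.96, followed by Hop3 and AT5G51440 at 0.92 and AT5G48570 and Hop3 at 0.90. The lowest values were those of AT2G20560 with the small heat-shock proteins AT2G29500 and AT1G54050, both at 0.46, while it was at 0.80 with AT5G51440. Without centring the 15 values ran from 0.24 to 0.88, with a median of 0.72, and the closest pair was then AT5G48570 and Hop3, with AT5G48570 and AT5G51440 at 0.69. Over the 4 water arrays alone 12 of 15 were above 0, with a lowest value of −0.50 and 0.37 for AT5G48570 and AT5G51440. The closest pair thus changed with the centring. Against the mean of the 6 genes, which each gene helps to form, AT5G51440 reached 0.99 and AT2G20560 0.78.

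**Figure D3:**
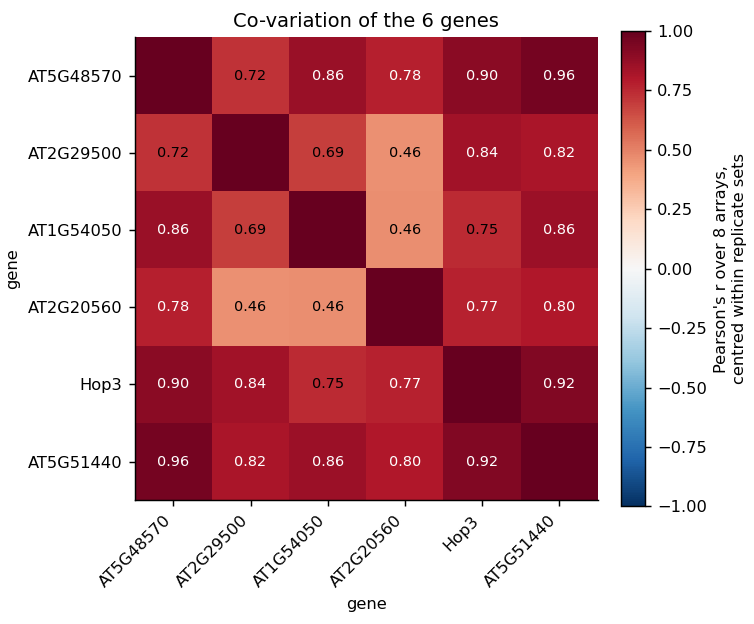
Pearson's r between each pair of the 6 genes over the 8 arrays (colour scale from −1 to 1), after log2 signals were centred within replicates 1 and 2 and within replicates 3 and 4. All 15 pairs are above 0, from 0.46 (AT2G20560 with AT2G29500 and with AT1G54050) to 0.96 (AT5G48570 with AT5G51440).

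To place the 6 genes in their pathway, other heat-shock genes were taken from lists of 104 genes by role. Of these 33 had a named probe set and 23 were bright enough to be tested, and none of the 22 on the list of heat-shock factors and their binding protein had a named probe set. None of the 23 rose or fell in limma's test of GA4 against water, neither unpaired nor with the replicate number entered as a block (paired fit), at an adjusted p under 0.05. Over all tested probe sets 0.0147% passed unpaired (2, both lower in GA4, so 0.0% were higher, and 1 when any array was left out) and 0.293% paired (40, of which 5, or 0.0366%, were higher). At an unadjusted p under 0.05 there were 2 of the 23 unpaired (2.65% of all tested) and 5 of the 23 paired (11.8% of all tested), all of them higher in GA4 (0.879% and 5.17% of all tested were past that p and higher). The median of the 23 was 0.07 log2 units against 0.01 over all tested, with 16 above 0 and 7 below. How many of all tested lay above 0 was not counted. By set, the median of the 23 was 0.05 on replicates 1 and 2 and 0.08 on replicates 3 and 4.

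Of the 17 other small heat-shock proteins, 4 were tested. AT2G19310 was at 0.53 log2 units (unpaired SE 0.20), and its adjusted p was 1.00 unpaired and 0.0790 paired. It read 2356, 1737, 1529 and 1671 units in water and 3516, 2356, 2419 and 2247 units in GA4, higher on all 4 numbers. Its size was 0.51 on replicates 1 and 2 and 0.54 on replicates 3 and 4. AT4G21870 was at 0.37 (SE 0.21), with 0.67 on replicates 1 and 2 and 0.07 on replicates 3 and 4. AT5G47600 was at −0.09 (SE 0.36) and AT5G54660 at −0.27 (SE 0.47). The latter had opposite signs in the sets, with 0.31 for replicates 1 and 2 and −0.84 for replicates 3 and 4, and AT5G47600 was at −0.05 and −0.14. In their means the 4 tested small heat-shock proteins did not share a direction.

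The co-chaperones gave 10 tested genes of 18, with a median of 0.11. AT4G27890, a relative of the protein BOBBER1, had the largest difference of the 23 at 0.75 (SE 0.27, adjusted p = 1.00 unpaired and 0.270 paired). It read 117, 112, 115 and 141 units in water and 338, 154, 181 and 178 units in GA4. All its GA4 arrays lay above all its water arrays (1 of the 23 genes, and 0.894% of all tested probe sets). Fes1A, which helps HSP70 to release its clients and protects it from breakdown, was at 0.49 (SE 0.29, adjusted p = 1.00 unpaired and 0.168 paired). AT3G12050, of the family of HSP90 activators AHA1, was at 0.40 (SE 0.19, adjusted p = 1.00 unpaired and 0.276 paired). These 3 genes were higher in GA4 on all 4 numbers, though AT3G12050 was nearly level on replicate 2, at 0.01. With AT2G19310 they made 4 of the 23 (9.64% of all tested probe sets were higher on all 4 numbers). AT4G27890 was at 1.53 on replicate 1 and 0.34 to 0.65 on the other numbers. Its means were 0.99 on replicates 1 and 2 and 0.50 on replicates 3 and 4. In the same order they were 0.46 and 0.53 for Fes1A and 0.35 and 0.45 for AT3G12050. The others were close to level, with SQN, the HSP90-binding cyclophilin, at 0.19 and Fes1C at 0.16. BOB1 was at 0.07, SGT1A at 0.01 and Fes1B at −0.02.

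The HSP70 chaperones Hsp70-2, AT3G09440 and AT1G11660 were at 0.20 (SE 0.41), 0.19 (SE 0.37) and 0.22 (SE 0.42). For Hsp70-2 replicates 1 and 2 gave −0.05 and replicates 3 and 4 gave 0.45, for AT3G09440 they gave −0.08 and 0.47, and for AT1G11660 0.36 and 0.08. Hsp70-2 and AT3G09440 are similar in sequence, so their probe sets may share transcripts, which was not tested. The 5 tested relatives of AT2G20560 among J-domain proteins had a median of −0.05. By set it was −0.17 on replicates 1 and 2 and 0.06 on replicates 3 and 4. AT5G01390 was at 0.05, AT1G10350 at −0.04, AT3G47940 at −0.05, AT4G28480 at −0.08 and AT1G44160 at −0.30 (SE 0.31). HSA32, a heat-induced protein needed for lasting heat tolerance, was at 0.41 (SE 0.20, adjusted p = 1.00 unpaired and 0.445 paired), with 0.71 on replicates 1 and 2 and 0.11 on replicates 3 and 4. Of HSP90 and HSP100 genes, 1 of 11 had a named probe set and none was tested.

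**Figure D4:**
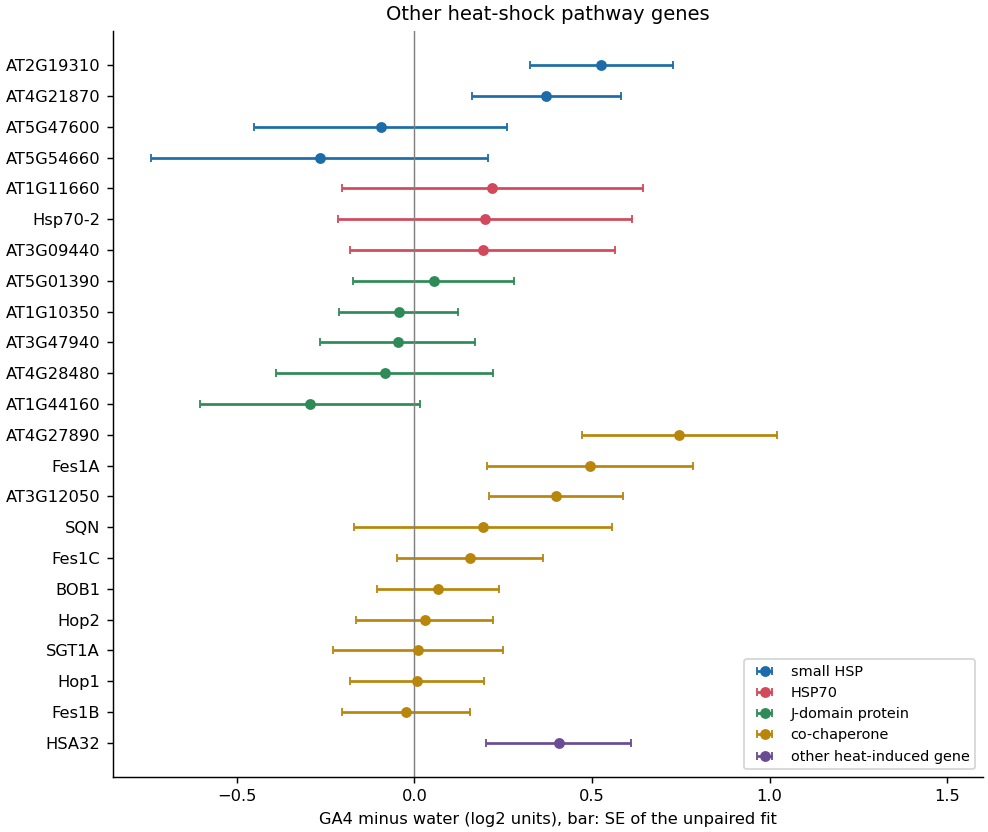
GA4 minus water (horizontal axis, log2 units) with the SE of the unpaired limma fit for the 23 tested heat-shock pathway genes outside the 6, coloured by role. AT4G27890 at 0.75 and AT2G19310 at 0.53 lie farthest to the right. J-domain proteins lie from −0.30 to 0.05, with AT1G44160 the farthest to the left of all 23, and none of the 23 passed the test.

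Chaperones of other compartments were set beside these. For the unfolded-protein response of the endoplasmic reticulum, 5 of 16 genes were tested, with a median of 0.05. The highest was BZIP60, a transcription factor of that response, at 0.28 (SE 0.27), and the lowest AT5G07340, a calnexin, at −0.15 (SE 0.16). The 1 tested chaperonin of 8, Cpn60beta2 of the chloroplast, was at 0.24 (SE 0.17). By limma none of these 6 genes passed in the unpaired or the paired fit. At an unadjusted p under 0.05 there were none unpaired (2.65% of all tested) and 1 of these 6 paired (11.8% of all tested). The 1 gene was BZIP60, higher in GA4 (5.17% of all tested were past that p and higher). Its adjusted p in the paired limma fit was 0.419. The set of replicates 1 and 2 gave it a mean difference of 0.46, against 0.10 for the other set.

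The genes most like the 6 were sought among 7309 tested probe sets with 1 gene, by Pearson's correlation with the mean of the 6 over the 8 arrays, centred within the sets. The 10 closest had correlations of 0.898 to 0.991. In order they were AT1G51540, AT1G19430, AT4G00530, AT5G49610, AT1G32690, AT1G63730, AT3G07090, AT2G26200, Fes1A and AT1G23980. The mean of the 6 holds the GA4 difference for which they were chosen, and the centring kept it. The ranking therefore favours genes higher in GA4 and is a description. Fes1A, at 0.903, was the only one among them from the 23 tested genes of the heat-shock lists. The closest, AT1G51540, was at only 0.15 ± 0.14 log2 units (SD, n = 4), with 0.06 on replicates 1 and 2 and 0.25 on replicates 3 and 4, so a like shape came with a small size. AT1G32690 and Fes1A, both at 0.49, had the largest sizes of the 10, near that of the 6 genes, followed by AT3G07090 at 0.39. AT1G32690 read 421, 377, 412 and 407 units in water and 531, 393, 780 and 642 units in GA4. Of these 10, 3 were also among the 10 closest when the genes were not centred, so the ranking depends on how the sets are treated.

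**Figure D5:**
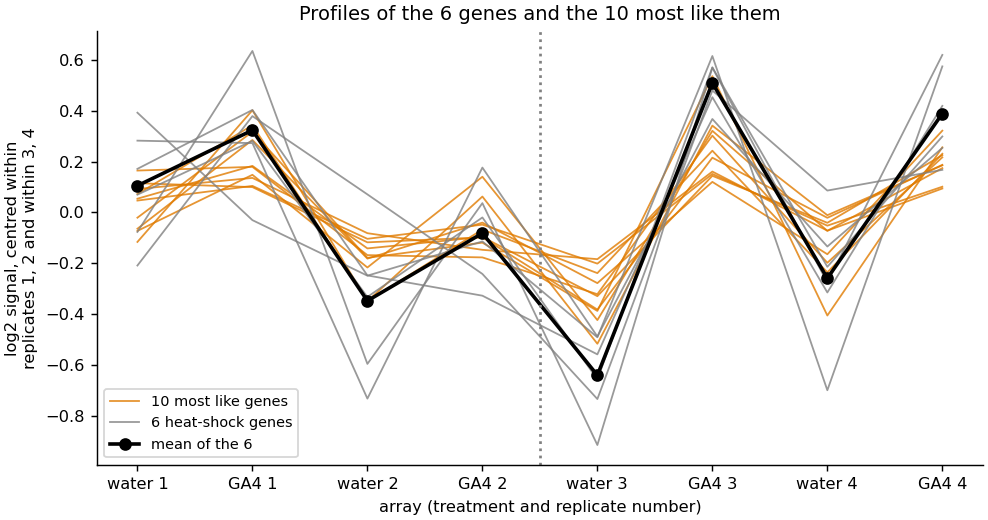
Log2 signals of the 6 heat-shock genes (grey), their mean (black) and the 10 genes most like it (orange), centred within replicates 1 and 2 and within replicates 3 and 4, for each array. The black line is highest on GA4 replicate 3 and lowest on water replicate 3.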

How the data were processed

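The authors deposited a linear signal intensity for each probe set on each array, made with MAS5 (no version given) per the submitters' processing notes. Trimmed means (2% at each end) of the 8 columns were 500.04 to 500.05, so no scaling was added. Depth is not defined for arrays, and their number, 4 per group, limits the precision. Of 182480 values, 707 lay under 1 and were raised to 1 before log2, 64 controls were left out, and the 60% of probe sets with the highest mean were tested. No detection calls were used, so dim values may be background. The platform annotation, updated through the TAIR10.1 gene table, gave 1 gene for 13513 probe sets, several for 503 and none for 8730. No build is given for the array, so no positions are printed.

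GA4 was compared with water by limma 3.58.1 (R 4.3.3; lmFit, eBayes with trend, 2-sided, Benjamini-Hochberg over 13648 probe sets, threshold 0.05), unpaired, and with the replicate number as a block. Same-numbered arrays had correlations of 0.616 to 0.686 in their deviations from the group means, above the minimum of 0.1, but arrays of different number also did so within replicates 1 and 2 (0.367 and 0.392) and within replicates 3 and 4 (0.599 and 0.544), so pairing by number is not settled over these sets. The code was tested on simulated data. The 6 genes, the lists and the naming rule were chosen with earlier results of these data known. The rule named all 6 genes, every tested heat-shock list gene, the extremes of the other chaperone lists and the 10 most like genes. A search of gene names for heat-shock terms added 1 gene, BRK1, matched through the synonym HSPC300 and not past the threshold in either fit.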

Additional observations from a re-analysis of the deposited data

Results flagged for a closer look

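In 58 groups of 4 arrays (29 genes, water and GA4), 5 had 1 array far from the other 3. Chance flags about 1 group in 20 where the 4 values are independent draws from 1 normal distribution. Each group here joins replicates 1 and 2 with replicates 3 and 4, and the groups share arrays, so that rate need not hold. ROF2 (AT5G48570) was at 9.09 log2 units on GA4 replicate 2 against 9.68 to 9.77 on the other GA4 arrays, and that gap took 0.869 of the group's range. AT2G19310 and AT1G44160 stood apart on GA4 replicate 1, at 11.78 against 11.13 to 11.24 (0.836 of the range) and at 7.62 against 6.54 to 6.72 (0.832). This is the array whose hybridisation controls read 2.94 times the water mean. AT4G27890 and SGT1A stood apart on water replicate 4, at 7.14 against 6.81 to 6.87 (0.830) and at 10.44 against 9.79 to 9.87 (0.873). The part of the arrays in these values was not tested.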

How the results depend on the processing

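GA4 against water called 2 probe sets unpaired, 40 with the replicate number as a block, 32 with a block on the replicate sets and 20 with quantile normalization and the replicate block. It called 1 without the filter, 1 with the stricter filter, 1 within replicates 1 and 2 and 9 within replicates 3 and 4. Leaving out any 1 array left 1 call, and leaving out a pair under the replicate block gave 8 to 53 calls (14 without pair 1, 8 without pair 2, 53 without pair 3 and 43 without pair 4). The cause was not tested. For the heat-shock lists, 0 of 22 alternatives gave a call, the replicate block included. Over the alternatives, leaving out arrays included, the mean difference was 0.67 to 1.19 for AT5G48570, −0.14 to 1.19 for AT2G29500, 0.41 to 0.76 for AT1G54050, 0.12 to 0.65 for AT2G20560, 0.08 to 0.87 for Hop3 and 0.26 to 0.87 for AT5G51440. Only AT2G29500 within replicates 1 and 2 was below 0. With the stricter filter AT2G29500 and Hop3 were not tested.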

Other observations

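Some named heat-shock genes lay below the filter. They are given as values only, since dim signals were not told apart from background. The small heat-shock protein ATHSP22.0 read 134, 83.7, 79.6 and 91.6 units in water and 182, 110, 110 and 114 units in GA4, higher on all 4 replicate numbers. AT1G53540, a class I relative of AT2G29500, read 74.1, 19.5, 31.5 and 9.77 units in water and 70.3, 29.1, 48.8 and 35.9 units in GA4. It was nearly level on replicate 1, at −0.08 log2 units, and higher in GA4 on the other numbers. AT5G37670 read 57.5, 41.5, 50.4 and 56.5 units in water and 43.7, 48.1, 59.8 and 49.1 units in GA4, with a mean difference of −0.03 log2 units. AT1G52560 read 47.6, 38.7, 46.4 and 6.09 units in water and 59.8, 38.3, 3.81 and 6.44 units in GA4. Its mean difference was −0.80 log2 units, with −3.61 on replicate 3 and −0.02 to 0.33 on the other numbers. These 4 small heat-shock proteins did not share a direction.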
